A study of Mus musculus with 6 samples.

Results

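The genes described here are 10 regulators and targets of Yap, a transcriptional co-activator of the Hippo pathway, in mouse dorsal skin after depilation. They were the rows of the expression table with the symbols Yap1, Wwtr1, Tead1, Ccn1, Ccn2, Ankrd1, Amotl2, Axl, Lats2 and Ajuba, that is 10 of 32285 genes. The 10 were chosen by name, with earlier results of these data known. Of these, 9 had at least 1 UMI in every library, and Ankrd1 had none in any library. The skin came from wildtype FVB males at P55 to P57, which were shaved and waxed to start hair regeneration. The sampling times were 0, 4 and 16 h and then 2, 4 and 6 d post depilation, with 1 single-cell 3' library per time point and 2 mice pooled at equal cell number in each library. The 0 h library is the only reference for the later times. A time point therefore has no replicate, and a time point and its library cannot be told apart.

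In the Hippo pathway, the kinases Lats1 and Lats2 phosphorylate Yap and its paralog Taz (encoded by Wwtr1) and keep them out of the nucleus. When the kinases are inactive, Yap and Taz bind Tead transcription factors and switch on genes such as Ccn1, Ccn2, Ankrd1, Amotl2 and Axl. Some of these products, including Amotl2 and Lats2, act back on the pathway as inhibitors. In skin the pathway is known for its role in basal keratinocytes and in wound repair. A transcript level does not show the location or phosphorylation of a protein.

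The Tead factors bind a short sequence, GGAATG, whose reverse complement is CATTCC. RefSeq promoters of GRCm38.p6, from 250 bases before to 50 bases after the start, were searched for it on both strands, and 14.7% of 32851 promoters held it. An entry was found for 8 of the 10 genes, and each of the 8 held the motif in at least 1 entry. Ccn2 and Tead1 had no entry. Of the 8 genes with an entry, Wwtr1, Lats2 and Ankrd1 are not printed, though Wwtr1 and Lats2 also differed between cell types and Ankrd1 had no UMI. The 5 printed genes differed between cell types or stood high at 4 h or in OB1 at 0 h. Their stretches around the match are given 5' to 3' on the strand of the gene, with the match in capitals. A match describes these letters and is not evidence of binding. The match lay 141 bases before the start in Yap1 (chr9:8004692-8004777, minus strand), 103 in Ccn1 (chr3:145650043-145650128, minus), 233 in Axl (chr7:25788921-25788983, minus), 65 in Amotl2 (chr9:102717727-102717756, plus) and 164 in Ajuba (chr14:54577780-54577865, minus), where a further match 186 bases before the start is left in lower case.
Yap1: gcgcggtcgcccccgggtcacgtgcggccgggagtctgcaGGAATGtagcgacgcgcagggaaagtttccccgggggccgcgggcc
Ccn1: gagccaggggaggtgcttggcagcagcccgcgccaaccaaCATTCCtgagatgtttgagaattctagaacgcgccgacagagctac
Axl: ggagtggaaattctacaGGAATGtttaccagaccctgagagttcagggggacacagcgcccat
Amotl2: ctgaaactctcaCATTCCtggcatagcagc
Ajuba: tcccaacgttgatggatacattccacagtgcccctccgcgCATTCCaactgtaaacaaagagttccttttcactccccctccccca

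The deposited values were raw UMI counts per gene and cell, 72634390 to 112370376 UMIs per library. Of 61031 barcodes, 49974 cells were analysed after filters on genes, mitochondrial share and doublets, with 6498 to 10869 cells and a median of 6009 to 10522 UMIs per cell in each library. Of 49671 distinct barcode sequences, 303 occurred in more than 1 library. Cells were clustered without the genes described here or the other pathway genes, and each cluster was named from its markers, so every name stands for cells like that type. OB1, OB2 and OB3 are parts of the outer bulge of the hair follicle (HF), where the hair follicle stem cells (HFSCs) reside, uHF.B and uHF.SB are basal and suprabasal upper HF, and IFE.B and IFE.SB are basal and suprabasal interfollicular epidermis. OB1 comprised 282, 224, 303, 218, 1505 and 1191 cells from 0 h to 6 d. The summed level of the outer bulge markers was 6912 to 24070 CPM in OB1 and 1745 to 8491 CPM in IFE.B. One cluster of 587 cells, 366 of them from 4 h and 216 from 16 h, was led by Cpa4, Krt8 and Cgref1 and was left unnamed. Levels are given as CPM, the UMIs of a gene scaled to all UMIs summed over the cells of a type in 1 library, and they are compared between samples and not between genes.

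Yap1 (chr9:7931999-8004596, minus strand, GRCm38), the co-activator itself, was detected in every keratinocyte type. From 0 h to 6 d its level in IFE.B was 93.3, 88.0, 71.8, 68.7, 64.8 and 79.6 CPM, in the order of the 6 times. In OB1 the same times gave 79.8, 66.4, 67.0, 62.4, 47.0 and 55.6 CPM. The OB1 value was the lower one in each of the 6 libraries, although the ranges over time overlapped. T cells, which serve as a low reference for this gene, had 6.8 to 12.2 CPM. Wwtr1 (chr3:57455649-57575910, minus), encoding Taz, had 117, 45.4, 62.2, 67.2, 66.7 and 104 CPM in IFE.B and 43.3, 46.7, 29.8, 57.7, 47.0 and 92.0 CPM in OB1. Its IFE.B levels were highest at 0 h and 6 d, and OB1 was lower in 5 of 6 libraries.

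Tead1 (chr7:112679318-112906807, plus), one of the DNA-binding partners, had the opposite order between the types. Its level in OB1 was 48.4, 110, 51.8, 70.6, 75.2 and 67.0 CPM from 0 h to 6 d, and in IFE.B it was 30.9, 52.8, 14.7, 38.9, 30.1 and 32.5 CPM. OB1 was above IFE.B in 6 of 6 libraries, and the 4 h library held the highest value of both types. The 4 h value also stood out in uHF.B, where Tead1 was at 129 CPM against 29.7 to 47.0 CPM at the other times.

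**Figure D1:**
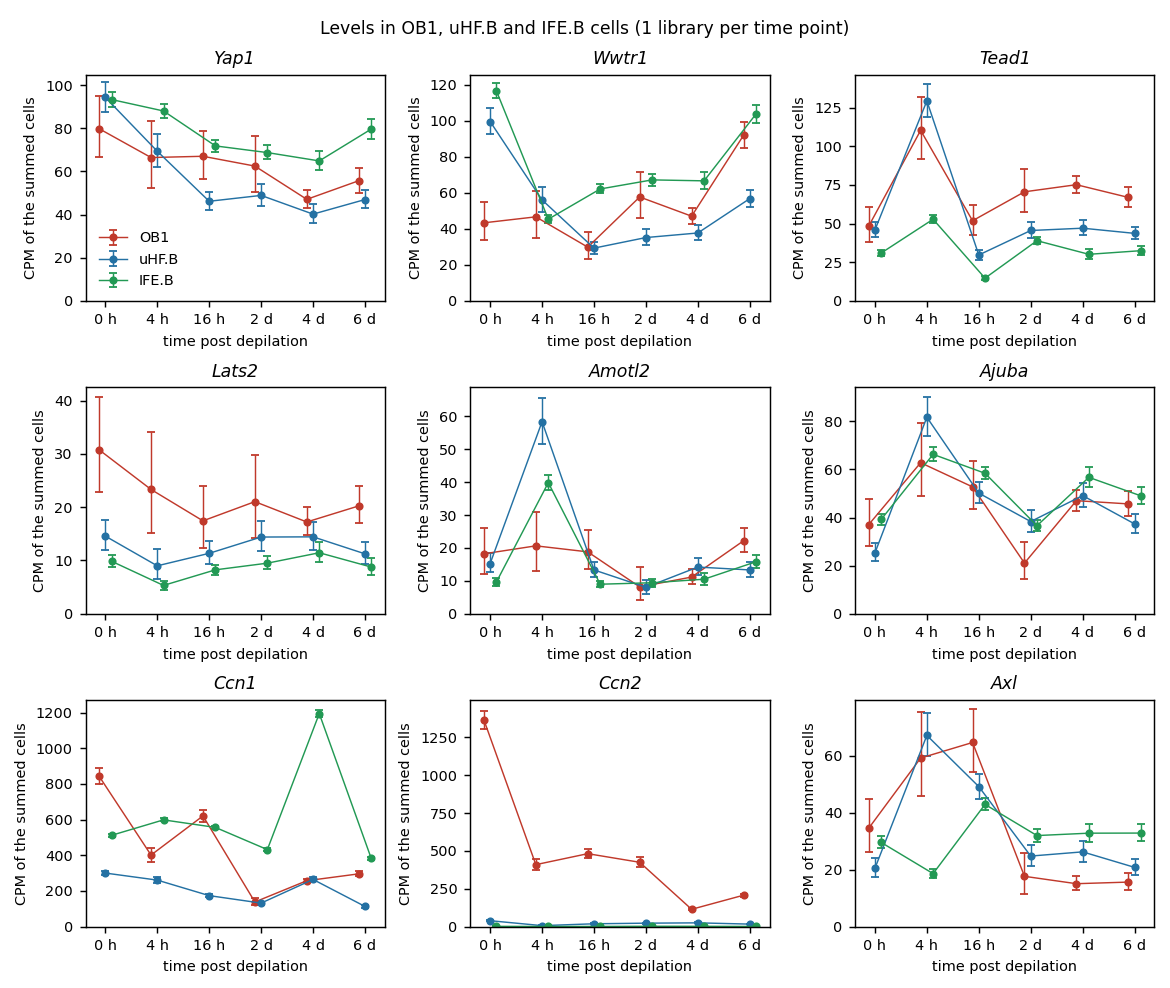
Level of each of the 9 detected genes, in CPM of the summed cells on a linear axis, against time post depilation in OB1, uHF.B and IFE.B, with 1 point per library and a 95% Poisson interval for counting error. In OB1, Ccn2 stood highest at 0 h (1366 CPM) and lowest at 4 d (114 CPM), whereas Yap1 stayed between 47.0 and 79.8 CPM.

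Lats2 (chr14:57689662-57758388, minus), the kinase that inhibits Yap and Taz, was low in keratinocytes and highest in T cells. T cells had 226, 117, 95.9, 102, 35.7 and 165 CPM from 0 h to 6 d. OB1 had 30.8, 23.3, 17.4, 21.04, 17.2 and 20.2 CPM, and IFE.B had 9.84, 5.31, 8.23, 9.49, 11.4 and 8.76 CPM. OB1 exceeded IFE.B in all 6 libraries, with no overlap of the ranges, while T cells exceeded OB1 at each time.

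Ajuba (chr14:54567472-54577558, minus), a LIM protein that binds and restrains Lats kinases, was higher in basal than in suprabasal epidermis. IFE.B had 39.2, 66.3, 58.4, 36.6, 56.7 and 49.0 CPM, uHF.B had 25.3, 81.7, 50.2, 38.3, 49.1 and 37.4 CPM, and IFE.SB had 10.4 to 26.3 CPM. The ranges of IFE.B and IFE.SB did not overlap. Amotl2 (chr9:102716672-102733418, plus), an angiomotin that holds Yap at junctions and is itself a Yap target, had the reverse order. IFE.SB had 43.3, 81.6, 53.8, 35.0, 53.2 and 58.2 CPM against 9.62, 39.9, 8.96, 9.41, 10.5 and 15.8 CPM in IFE.B. The suprabasal value was the higher one in each library.

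Ccn2 (chr10:24595442-24598683, plus), a secreted matricellular protein and a classical Yap target, was high in OB1 and OB3. Its level in OB1 was 1366 CPM at 0 h (95% Poisson interval 1309 to 1425), and the 5 later libraries gave 409, 482, 425, 114 (107 to 121) and 207 CPM. The intervals cover counting error only. OB3 had 823, 161, 340, 420, 341 and 323 CPM, whereas OB2 had 72.3, 2.49, 16.7, 11.1, 17.5 and 17.7 CPM. The values of uHF.B were 38.6, 5.99, 18.2, 22.3, 24.4 and 16.1 CPM, and those of IFE.B were 1.18, 0.32, 0.62, 1.78, 1.43 and 0.46 CPM. The OB1 values lay above every OB2, uHF.B and IFE.B value. In order of the median over libraries, OB1 (417 CPM) was followed by OB3 (341 CPM), which it exceeded in 4 of 6 libraries. Next was IRS2 (60.1 CPM), a cluster named for inner root sheath markers, which OB3 exceeded in 5 of 6. From 0 h to 2 d IRS2 had 34, 37, 61 and 109 cells, with Ccn2 at 128, 39.2, 357 and 81.0 CPM. At 4 and 6 d it had 1102 and 162 cells, and its lowest level (17.4 CPM) fell among these later times. The paper reports that its inner root sheath clusters emerged after the early time points. Whether the early IRS2 cells are inner root sheath was not tested.

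After each cell was thinned to 2000 UMIs, Ccn2 was found in 76.2% of OB1 cells at 0 h (95% Clopper-Pearson interval 70.8 to 81.1) and in 34.1, 39.7, 35.5, 15.6 (13.8 to 17.5) and 19.2% over the later libraries. Unthinned, the share was 91.1% at 0 h and 27.6% at 4 d, where the median OB1 cell had 5578 and 5928 UMIs. T cells, which serve as the background, had no Ccn2 UMI in 4 of the 6 libraries and at most 6.30 CPM in the others, with a UMI in at most 0.885% of thinned T cells, at a median of 2020 to 2702 UMIs per cell. The 0 h library thus stood highest both in the summed level of OB1 and in its share of cells. Ccn2 is also known from fibroblasts. The dermal papilla and fibroblast cells had 2.40 CPM at 4 d and 17.9 CPM at 6 d, the 2 libraries with enough of them. In OB1 the 6 fibroblast markers summed to 6.88 to 39.6 CPM, with Lum, Pdgfra and Mfap5 at 0. Any part of fibroblast RNA in the OB1 level was not tested.

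**Figure D2:**
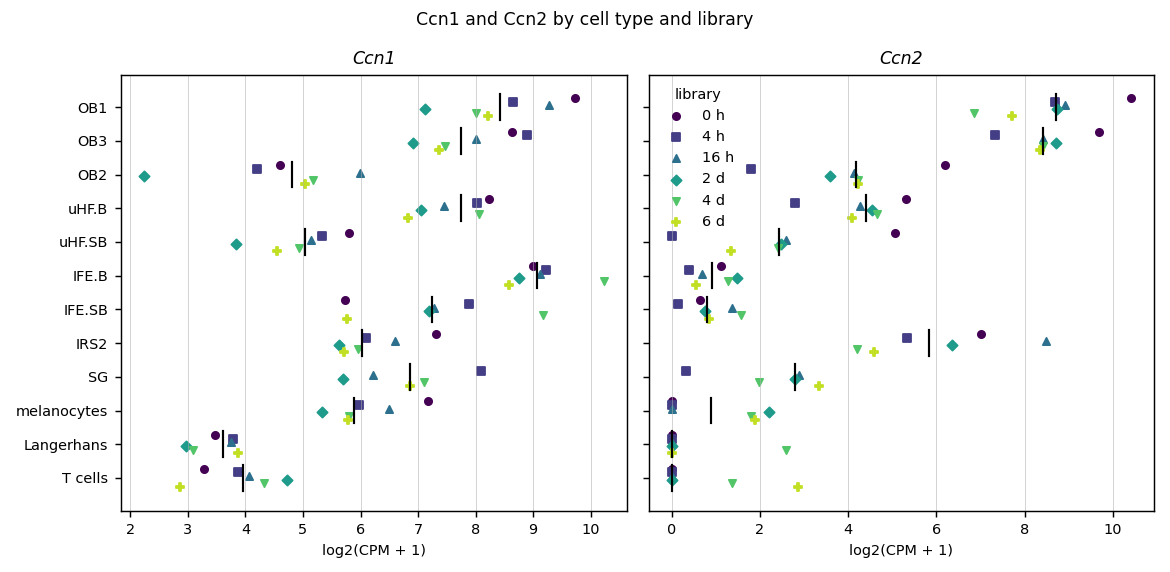
Levels of Ccn1 and Ccn2 as log2(CPM + 1) by cell type, with 1 symbol per library and a vertical bar at the median of the libraries. Ccn2 was high in OB1 (114 to 1366 CPM) and OB3 (161 to 823 CPM) and at most 1.78 CPM in IFE.B, whereas Ccn1 reached 1195 CPM in IFE.B.

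Ccn1 (chr3:145646976-145649981, minus), a related matricellular protein and Yap target, was spread more widely than Ccn2. OB1 had 844, 401, 621, 138, 257 and 296 CPM from 0 h to 6 d. IFE.B had 512, 599, 556, 432, 1195 and 383 CPM, and IFE.SB had 52.3, 237, 155, 145, 577 and 53.2 CPM. In both epidermal layers the highest value was that of 4 d, whereas in OB1 it was that of 0 h. OB2 had 23.2, 17.4, 62.8, 3.70, 35.1 and 31.7 CPM, each below the OB1 value of the same library. Over the 90 sums of type and library, the Pearson correlation of Ccn1 with Ccn2 on log2(CPM + 1) was 0.32, against 0.80 for Tead1 with Yap1 and -0.71 for Lats2 with Yap1. These sums share libraries and cell types, so the correlations are a description. They also include T cells and Langerhans cells, so they do not describe the epithelium alone. In these 2 types Lats2 was highest (medians 110 and 75.2 CPM) and Yap1 lowest (medians 9.43 and 1.86 CPM).

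Axl (chr7:25757273-25788705, minus), a receptor tyrosine kinase, had 34.5, 59.2, 64.7, 17.6, 15.1 and 15.6 CPM in OB1. The 3 early libraries were above the 3 late ones. In uHF.B the levels were 20.5, 67.2, 49.2, 24.8, 26.2 and 20.8 CPM, with the highest at 4 h and 16 h. Ankrd1 (chr19:36111961-36120099, minus), a muscle ankyrin repeat protein often read as a Yap target, had 0 UMIs in the 49974 cells, and it entered no test. The matrices do not show whether the transcript was absent, below detection or not captured by the annotation used for counting.

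The keratinocyte types were compared over the 6 libraries with edgeR's quasi-likelihood test on summed counts, with the library as a block and Benjamini-Hochberg adjustment over 12713 genes. The 9 detected genes were all tested. These p-values rest on the spread between libraries of different time points. Between OB1 and IFE.B 6 of the 9 genes were called, beside 45.6% of all genes (21.9% higher in OB1 and 23.6% higher in IFE.B). Ccn2 was 409-fold higher in OB1 (log2 difference 8.67, SE 0.526, adjusted p = 2.698e-15). The IFE.B level under this fold, 0.32 to 1.78 CPM, lay within the range of the T cell background (0 to 6.30 CPM). Tead1 was higher by 0.84 (SE 0.238, adjusted p = 0.003915) and Lats2 by 0.99 (SE 0.201, adjusted p = 8.83e-05) on the log2 scale. Both were higher in 6 of 6 libraries.

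In the same comparison Yap1 (-0.60, SE 0.151, adjusted p = 0.001225), Wwtr1 (-0.81, SE 0.214, adjusted p = 0.001972) and Ajuba (-0.49, SE 0.171, adjusted p = 0.01773) were lower in OB1. The Ajuba difference was the least secure, with an adjusted p of 0.08497 without the 2 d library and 0.09523 without the 4 d library. The Wwtr1 call was lost when the unnamed cluster was counted as OB1 (-0.44, adjusted p = 0.1568). Ccn1 (-0.83, adjusted p = 0.08333) passed only without the 0 h library (-1.16, adjusted p = 0.01246). Axl passed only without the 4 h library (-0.70, adjusted p = 0.008479).

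Against uHF.B, 2 of the 9 genes were higher in OB1 and none lower, beside 36.5% of all genes called in either direction (18.1% higher in OB1 and 18.4% lower). Ccn2 was 19.9-fold higher (log2 4.32, SE 0.420, adjusted p = 5.731e-10) and was higher in 6 of 6 libraries. Lats2 was higher by 0.57 (SE 0.205, adjusted p = 0.02604), but its adjusted p lay between 0.05451 and 0.06192 without the 0 h, 4 h, 16 h or 6 d library. Without the 4 d library Ccn1 was also called (log2 1.00, adjusted p = 0.03798). Between uHF.B and IFE.B, 4 of 9 genes were called beside 27.9% of all genes (13.4% higher in uHF.B and 14.5% lower). Ccn2 was higher in uHF.B (4.36, SE 0.473, adjusted p = 6.999e-09). Ccn1 (-1.68, SE 0.394, adjusted p = 0.001266), Yap1 (-0.56, SE 0.146, adjusted p = 0.002977) and Wwtr1 (-0.69, SE 0.206, adjusted p = 0.01054) were lower. The adjusted p of Wwtr1 was 0.05264 to 0.07028 without the 16 h, 2 d, 4 d or 6 d library. Tead1 missed the threshold (0.59, adjusted p = 0.05329) and passed without the 4 h library (0.43, adjusted p = 0.04206) or the 2 d library (0.73, adjusted p = 0.04023). It also passed with RLE normalization (adjusted p = 0.03876), DESeq2 (0.04612), at most 5% mitochondrial UMIs (0.03925) and the 2 types fitted alone (0.009302).

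Within the outer bulge, OB1 differed from OB2 in 4 of the 9 genes, beside 20.2% of all genes (12.2% higher in OB1), and all 4 were higher in OB1 in 6 of 6 libraries. They were Ccn1 (log2 3.63, SE 0.484, adjusted p = 1.628e-06), Ccn2 (4.43, SE 0.488, adjusted p = 5.007e-08), Tead1 (1.14, SE 0.296, adjusted p = 0.00515) and Ajuba (0.92, SE 0.224, adjusted p = 0.002788). OB2 sums came from 87 to 219 cells. Between OB1 and OB3, edgeR's quasi-likelihood test called 0 of the 9 genes beside 7.71% of all genes (3.88% higher in OB1 and 3.83% lower). An unadjusted p under 0.05 was found for 0 of the 9, beside 18.9% of all genes. DESeq2 also called 0 of the 9, a count given without its share over all genes. The Ccn2 difference was 0.31 (SE 0.379, adjusted p = 0.763) and that of Ccn1 0.78 (SE 0.409, adjusted p = 0.304), which an alternative fit of the 2 types alone called (0.68, adjusted p = 0.02537).

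**Figure D3:**
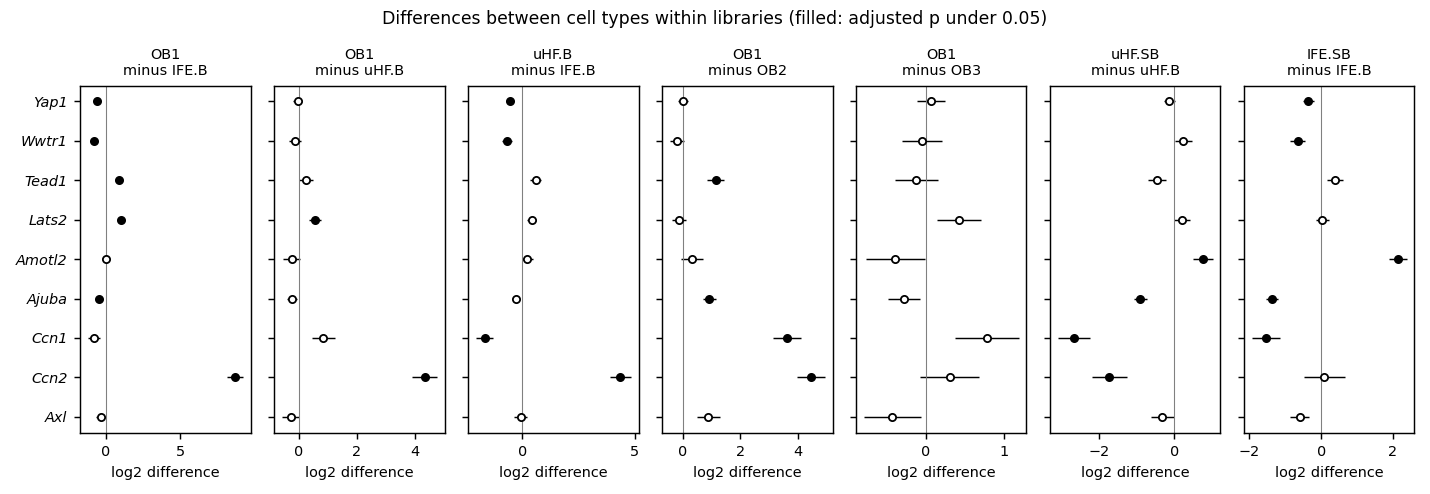
Log2 differences of the 9 detected genes between 7 pairs of keratinocyte types, each panel on its own axis, with bars for the standard error and filled points for an adjusted p under 0.05. The difference of 8.67 for Ccn2 between OB1 and IFE.B, where IFE.B had at most 1.78 CPM, is the largest shown. Amotl2 was higher and Ajuba lower in both suprabasal types.

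The basal and suprabasal layers differed in Amotl2 and Ajuba in opposite directions. In IFE.SB against IFE.B, 5 of 9 genes were called beside 52.7% of all genes (23.5% higher in IFE.SB and 29.2% lower). Amotl2 was higher in IFE.SB by 2.13 (SE 0.249, adjusted p = 5.318e-09). Ajuba (-1.38, SE 0.167, adjusted p = 6.579e-09), Ccn1 (-1.55, SE 0.392, adjusted p = 0.001262), Wwtr1 (-0.66, SE 0.204, adjusted p = 0.006668) and Yap1 (-0.36, SE 0.145, adjusted p = 0.03537) were lower, each in 6 of 6 libraries. The Yap1 call was lost without the 0 h, 16 h, 2 d, 4 d or 6 d library (adjusted p = 0.0564 to 0.1145). Without the 4 h library Tead1 (0.53, adjusted p = 0.006119) and Axl (-0.59, adjusted p = 0.01416) were called as well. In uHF.SB against uHF.B, 4 of 9 genes were called beside 44.7% of all genes (19.9% higher in uHF.SB and 24.8% lower). Amotl2 was higher (0.75, SE 0.266, adjusted p = 0.02031), and Ccn1 (-2.67, SE 0.429, adjusted p = 6.571e-06), Ccn2 (-1.73, SE 0.472, adjusted p = 0.003361) and Ajuba (-0.90, SE 0.180, adjusted p = 9.181e-05) were lower. The adjusted p of Amotl2 was 0.05344 to 0.1263 without the 0 h, 16 h, 2 d or 4 d library. Without the 4 h library Tead1 was called too (-0.50, adjusted p = 0.0194).

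Other genes of the pathway also differed between OB1 and IFE.B. Of 19 tested genes of the upstream group, which holds the kinases, their scaffolds and junction proteins, 5 were higher and 6 lower in OB1, with a median log2 difference of -0.14 against -0.03 over all genes. Amot, another angiomotin, was higher by 4.45 (adjusted p = 4.229e-11) and Fat1, a protocadherin, by 0.98 (adjusted p = 3.174e-06). Limd1, a LIM protein related to Ajuba, was lower by 1.13 (log2 -1.13, adjusted p = 1.543e-08), as was Amotl1 (-0.92, adjusted p = 0.0001459). Of 5 tested Tead and Vgll genes, Tead2 was higher by 6.80 (adjusted p = 2.098e-16), and Vgll3, a Tead cofactor, was lower (-1.74, adjusted p = 4.126e-05). Of 16 other Yap targets, 4 were higher, among them Nt5e (7.44) and Rbms3 (6.06), and 7 were lower, among them Asap1 (-2.08) and Nuak2 (adjusted p = 2.762e-06). Over all genes 21.9% were higher and 23.6% lower.

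In IFE.SB against IFE.B, 3 of 16 other Yap targets were higher and 12 lower, beside 23.5 and 29.2% of all genes, with a median of -1.23 against -0.07 over all genes. Nt5e (4.63) and F3 (2.74) were higher, and Birc5 (-3.46), which is also a gene of dividing cells, and Tgfb2 (-2.09) were lower. Vgll3 was higher in the suprabasal layer by 3.46 (adjusted p = 2.43e-16). In uHF.SB against uHF.B, 0 of the 16 targets were higher and 4 were lower, including Thbs1 (-2.18), beside 19.9% of all genes higher and 24.8% lower. Within the outer bulge, Thbs1 was higher in OB1 than in OB2 (2.99) and in OB3 (2.38), while Tgfb2 was lower in OB1 than in OB3 (-5.62). Against uHF.B, OB1 had more Tead2 (3.30) and less Vgll3 (-3.68). Between uHF.B and IFE.B, Amot (2.68), Tead2 (3.51) and Rbms3 (5.27) were higher and Igfbp3 (-6.04) and Limd1 (-1.18) were lower.

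Over the time course, edgeR's quasi-likelihood test with a spline of hours called 0 of the 9 genes in 6 of the 7 keratinocyte types and 0 of the 8 that passed the filter on low counts in OB3. With 6 libraries and 2 residual degrees of freedom, it called 1.78% of 10150 genes in OB1, 0.103% of 5824 in OB3 and 0 genes in OB2, uHF.B, uHF.SB, IFE.B and IFE.SB. In OB1 an unadjusted p under 0.05 was found for 3 of the 9, Axl (adjusted p = 0.1801), Ccn2 (adjusted p = 0.2684) and Ccn1 (adjusted p = 0.3636), in OB3 for 1 of 8 and in the other types for 0. Over all genes that share was 10.2% in OB1, 4.41% in OB3 and 0.665 (IFE.B) to 5.72% (uHF.SB) in the other types. DESeq2 called 1 of the 9 in OB1, Ccn2 (adjusted p = 0.02596), beside 412 of 13360 genes. It called 0 of them in the other types, beside 15 of 10472 genes (OB2) to 158 of 12551 (uHF.SB). Without the 4 h library, the edgeR test called Ccn2 (adjusted p = 0.02477) and Ccn1 (adjusted p = 0.03369) in OB1, beside 569 of 10280 genes. Without the 0 h library it called Axl in OB1 (adjusted p = 0.001473), beside 1002 of 10256 genes. In OB3 it then called Ccn1 (adjusted p = 0.03327), beside 249 of 6021 genes.

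On a time scale of log2(hours + 1), which spreads out the early times, the same test called Ccn2 (adjusted p = 0.02075) and Axl (adjusted p = 0.007579) in OB1, where 9.61% of genes were called. In OB3 it called Ccn1 (adjusted p = 1.364e-05) and Ccn2 (adjusted p = 0.000156), where 12.4% of genes were called. In uHF.SB it called Ccn2 (adjusted p = 0.01483) and Wwtr1 (adjusted p = 0.03128), beside 7.90% of genes. The Ccn2 counts of uHF.SB were low, at 46, 0, 15, 19, 27 and 8 UMIs from 0 h to 6 d. In OB2, uHF.B, IFE.B and IFE.SB the same test called 0 of the 9, beside 3.11, 0, 0 and 0.0162% of genes, with an unadjusted p under 0.05 for 4, 5, 0 and 1 of the 9. Over all genes, 1185 of 6877, 2316 of 11602, 1230 of 12937 and 1026 of 12380 had that unadjusted p in these 4 types. The Ccn2 difference over time in OB1 thus passed the test on this scale and not on hours.

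Against the 0 h library, OB1 Ccn2 was 0.30-, 0.35-, 0.31-, 0.083- and 0.15-fold over the 5 later libraries. The unnamed cluster is not in these values. It held 366 cells at 4 h and 216 at 16 h, with Ccn2 at 14.6 and 70.6 CPM. The paper reports a rapid rise of Krt8 and Cgref1 in its OB1 subset, so OB1 here may lack a part of the early bulge cells. At 16 h and 2 d it was among 1 and 3 genes at least 2-fold lower, beside 4.54 and 6.32% of 7991 genes. Taking a 2-fold difference on the log2(CPM + 1) scale, with no test, 3 of the 9 genes were lower at 4 d (Ccn1, Axl and Ccn2) beside 9.09% of 7991 genes, and 0 were higher beside 22.8%. At 6 d the same 3 were lower beside 4.63%, and 1, Wwtr1, was higher beside 12.6%. The summed level of 10 immediate early and dissociation genes, such as Fos, Jun and Egr1, was 30347, 17735, 14430, 7287, 10253 and 15858 CPM in OB1 over the same times. It was highest at 0 h, like Ccn1 and Ccn2, and its part in their levels was not tested.

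Levels at 4 h were set against 0 h in the same way, with no test, and differed between types. In uHF.B, 4 of the 9 genes were at least 2-fold higher than at 0 h beside 18.3% of 7521 genes, and 1, Ccn2, was lower beside 15.7%. Tead1 went from 45.9 to 129 CPM (2.82-fold), Amotl2 from 15.3 to 58.4 CPM (3.83-fold), Ajuba from 25.3 to 81.7 CPM (3.23-fold) and Axl from 20.5 to 67.2 CPM (3.28-fold). In uHF.SB, 3 of 8 genes with enough UMIs, Tead1 (3.05-fold), Ajuba (3.18-fold) and Axl (3.62-fold) were higher, beside 18.7% of genes, and Yap1 was 0.40-fold, beside 12.8% of genes lower. In IFE.B, 1 of 7 genes, Amotl2, was 4.14-fold higher (9.62 to 39.9 CPM), beside 16.9% of genes, and 1, Wwtr1, was 0.39-fold (117 to 45.4 CPM), beside 15.6% of genes lower. In OB1 without the unnamed cluster, 1 of 9 genes, Tead1, was 2.28-fold higher, beside 15.0% of genes. The 2 lower genes there were Ccn1 and Ccn2, beside 13.8%. In OB2, 5 of 9 genes (Wwtr1, Tead1, Amotl2, Ajuba and Lats2) were higher, beside 22.4% of genes. Another 3 (Yap1, Axl and Ccn2) were lower, beside 15.8%. The OB2 counts of Tead1, Amotl2, Ajuba and Lats2 at 0 h were 3 or 4 UMIs. In OB3, 1 of 9, Lats2, was higher from 2 UMIs, beside 18.6%, and 1, Ccn2, was lower, beside 21.6%. In IFE.SB, 2 of 7 (Ccn1 and Ajuba) were higher, beside 15.2%, and 1 (Wwtr1) was lower, beside 9.86%. The shares in IFE.B and of the higher genes in OB1 are near those over all genes. By 16 h or 2 d the uHF.B levels of Tead1 and Amotl2 were at or below those of 0 h.

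**Figure D4:**
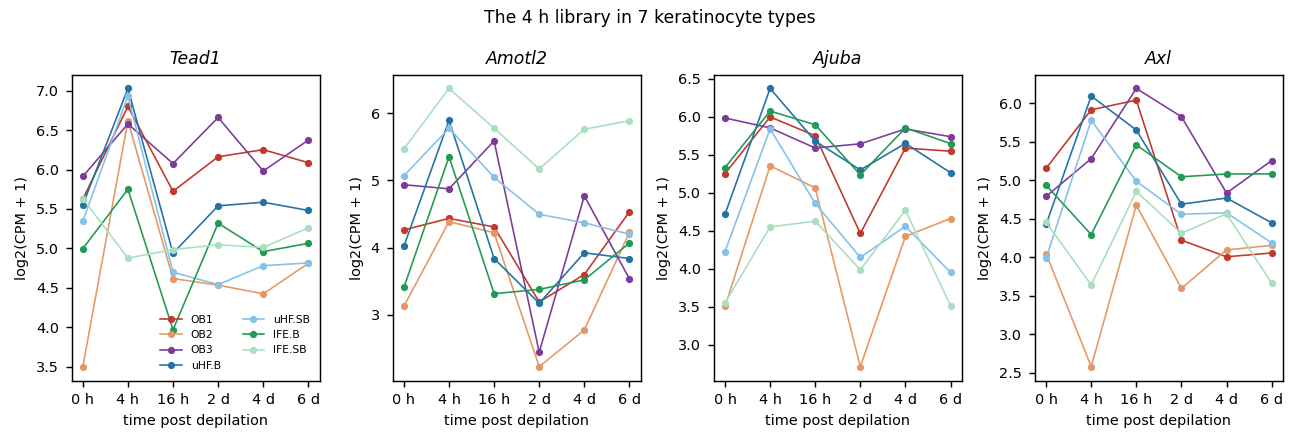
Levels of Tead1, Amotl2, Ajuba and Axl as log2(CPM + 1) against time post depilation in 7 keratinocyte types, with 1 point per library and each panel on its own axis. In uHF.B all 4 genes were 2.82- to 3.83-fold higher at 4 h than at 0 h, and Axl was below its 0 h level at 4 h in OB2, IFE.B and IFE.SB.

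The 4 h library held the highest level of the 6 in 5 of 7 types for each of Tead1, Amotl2 and Ajuba, which are named for this peak. The other detected genes peaked there in 2 types (Wwtr1, Axl and Lats2), 1 type (Yap1 and Ccn1) or 0 types (Ccn2). In IFE.SB, by contrast, Tead1 was lowest at 4 h (28.4 CPM against 48.6 CPM at 0 h). In all 7 types Ccn2 was lower at 4 h than at 0 h, in IFE.B and IFE.SB at levels under 2 CPM. Over all genes, 23.8 to 41.8% had their highest level at 4 h, depending on the type. The 4 h cells came from 1 library, so a change at 4 h and a property of that library cannot be told apart. The unnamed cluster of 4 h and 16 h cells had 201 and 124 CPM of Tead1, 157 and 58.9 CPM of Wwtr1, 46.3 and 162 CPM of Axl, and 14.6 and 70.6 CPM of Ccn2 at these times.

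OB1 was made of 2 clusters, one with 264, 178, 211, 78, 149 and 318 cells and one, named anagen OB1 for growth phase markers such as Ptch1 and Igfbp7, with 18, 46, 92, 140, 1356 and 873 cells. The OB1 cells were thus mostly of the anagen cluster at 2, 4 and 6 d, and mostly of the first cluster at 0, 4 and 16 h. Ccn2 was lower in the anagen cluster in 6 of 6 libraries, with a mean of 222 ± 195 CPM against 756 ± 389 CPM (SD, n = 6 libraries), and the values overlapped between libraries. Ccn1 was lower as well in 6 of 6, with 213 ± 65.3 CPM against 584 ± 286 CPM. Tead1 was lower in only 1 of 6. Within the first cluster, Ccn2 was 1422, 487, 620, 995, 647 and 364 CPM, with its lowest value at 6 d, and in the anagen cluster it was 595, 59.4, 211, 229, 79.3 and 161 CPM. These clusters were defined from the cells themselves and were not tested against each other.

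**Figure D5:**
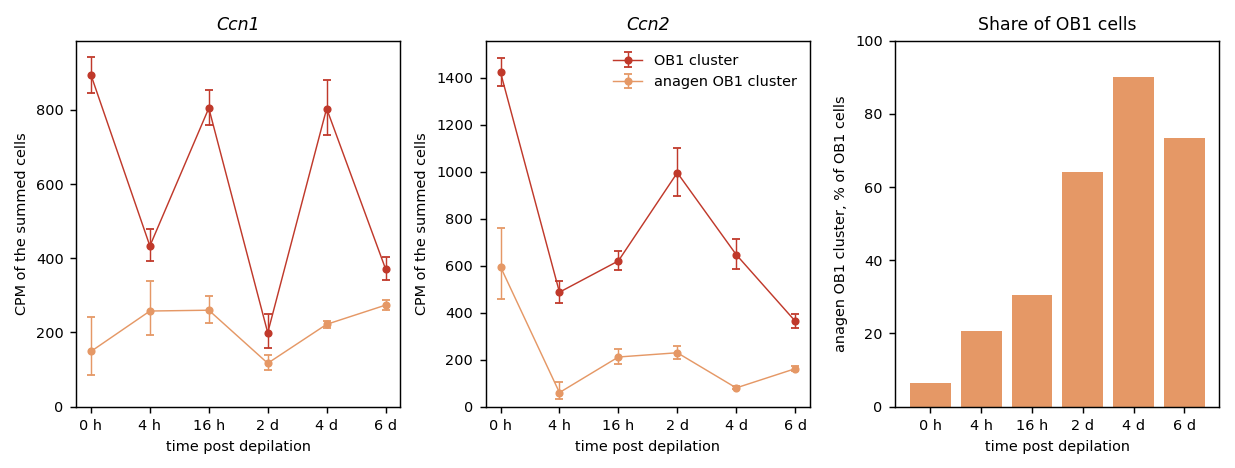
Ccn1 and Ccn2 in the OB1 cluster and the anagen OB1 cluster, in CPM of the summed cells with a 95% Poisson interval, beside the share of OB1 cells that fell in the anagen cluster in each library. Both genes were lower in the anagen cluster in 6 of 6 libraries, with Ccn2 at 79.3 CPM against 647 CPM at 4 d, when 1356 of 1505 OB1 cells were in the anagen cluster.

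Cells were called cycling with at least 2 UMIs of 10 cell division genes after thinning, a share of 9.57, 2.34, 6.62, 28.1, 53.3 and 23.8% of OB1 cells from 0 h to 6 d. The share was highest at 4 d, when Ccn2 was lowest. In the 5 libraries with enough OB1 cells, edgeR's quasi-likelihood test called 2 of the 9 genes, both lower in cycling cells, beside 21.6% of 10605 genes (11.2% higher in cycling cells and 10.3% lower). The 2 genes, Ccn1 and Ccn2, were also lower in the anagen cluster. The test pooled both OB1 clusters, so cycling state and cluster cannot be told apart. Ccn1 was lower by 0.58 (log2 -0.58, SE 0.116, adjusted p = 0.0001386) in 5 of 5 libraries. Ccn2 was lower by 0.78 (log2 -0.78, SE 0.183, adjusted p = 0.01021) in 4 of 5 libraries, with an adjusted p of 0.07238 without the 4 d library and 0.3282 without the 6 d library. Without the 0 h library Wwtr1 was called too (-0.42, adjusted p = 0.02325). In non-cycling OB1 cells alone, Ccn2 was 1386, 417, 474, 548, 175 and 238 CPM, which kept 0 h highest and 4 d lowest. In cycling cells it was 1176 CPM at 0 h and 74.3 CPM at 4 d.

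In IFE.B, 4 of the 9 genes were lower in cycling cells and 0 higher, beside 42.4% of 12000 genes called (16.8% higher in cycling cells and 25.5% lower). They were Yap1 (-0.33, SE 0.0533, adjusted p = 5.857e-05), Wwtr1 (-0.42, SE 0.0597, adjusted p = 1.528e-05), Ccn1 (-0.17, SE 0.0565, adjusted p = 0.02324) and Lats2 (-0.44, SE 0.111, adjusted p = 0.003122). Yap1, Wwtr1 and Lats2 were lower in 6 of 6 libraries, and Ccn1 was higher in 2 of 6. The Ccn1 call was lost without the 16 h (adjusted p = 0.1329), 2 d (0.05992) or 4 d library (0.08593). Without the 4 h library Tead1 (0.17, adjusted p = 0.04958) and without the 16 h library Amotl2 (-0.37, adjusted p = 0.009835) were called. In OB1, 6 of 14 other Yap targets were lower in cycling cells and 1 higher, beside 10.3% of all genes lower and 11.2% higher. In IFE.B 7 of 14 were lower and 1 higher, beside 25.5 and 16.8%. The 1 higher target in both types was Birc5, which is also a gene of dividing cells. Immediate early and dissociation genes were lower in cycling cells as well, 8 of 10 in OB1 and 5 of 10 in IFE.B.

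Over the 90 sums of cell type and library, the genes most like each member among 8403 were found by Pearson's r on log2(CPM + 1). The sums include T cells and Langerhans cells. Ccn2 was most like Rflnb (0.87), Fzd2 (0.84), a Wnt receptor, and Ptn (0.84), a secreted heparin-binding factor. Ccn1 was most like the integrin Itga3 (0.80), Wnt10a (0.78) and Ifitm3 (0.74). Yap1 followed Cask (0.88), Ryk (0.87) and Tfap2a (0.85), a keratinocyte transcription factor. Wwtr1 followed Tead1 (0.84), Daam1 (0.80) and Rtkn (0.80), and Tead1 followed Cttn (0.89), Bod1 (0.84) and Wwtr1 (0.84). Axl (P2ry1, 0.83) and Ajuba (Cpne8, 0.83) were both also like the basal integrin Itga6 (0.79 and 0.81). Lats2, which was highest in T cells, was most like Crem (0.82), Tmem243 (0.82) and Rasa2 (0.82). For Amotl2 the closest gene was Pls3 (0.73), an actin bundling protein.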

How the data were processed

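Single-cell 3' libraries were made from enzyme-digested skin, with 1 library per time point. Per the labels, the authors aligned reads to mm10 with Cell Ranger 6.1.2 and deposited filtered matrices of raw UMI counts, which keep no read depth per molecule. The annotation they used is not given in the sources used here. Cells with 500 to 7000 genes and at most 10% mitochondrial UMIs were kept, and doublets were removed at 0.8% per 1000 barcodes with scanpy 1.11.5. Cells were clustered in Seurat 5.3.0 with 1155 genes kept out, among them the 10 genes and all other lists. A cluster was named from at least 3 markers. Free RNA gives UMIs in cells that lack a gene, so T cells are given beside shares.

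Counts were summed per library and type (at least 20 cells, or 10 in the cycling comparison) and tested with edgeR 4.0.16 (TMM, quasi-likelihood, FDR 0.05), with DESeq2 1.42.0 as an alternative. The time course used a spline of hours. Fits were tested on simulated data. Positions are from GENCODE M21. The number of sample columns not used was 0. Named genes were the 10 genes, up to 2 called genes per direction, list and comparison, and the 3 genes most like each. The lists were upstream Hippo genes, Tead and Vgll genes, other Yap targets, immediate early and dissociation genes and cycling genes. The genes, lists and tests were chosen with earlier results of these data known. Alternatives were other normalizations, filters, time scales, cluster resolutions and leaving out each library.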

Additional observations from a re-analysis of the deposited data

How the results depend on the processing

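With other settings, 31 of 31 called differences between types or cycling states kept their sign, 16 stayed called in every alternative, and 23 in every alternative other than dropping the library block. Without the block the counts of genes called were 2 for OB1 against IFE.B, 1 for OB1 against uHF.B, 2 for uHF.B against IFE.B, 2 for OB1 against OB2, 2 for uHF.SB against uHF.B and 3 for IFE.SB against IFE.B, and 13 calls were lost. With only the 2 types fitted, OB1 against OB3 gave 1. Cycling OB1 cells gave 1 with RLE normalization, where Ccn2 was lost (adjusted p = 0.08914). Over the time course, OB1 gave 1 with DESeq2 and 2 on log2(hours + 1). With edgeR on the rank of the time point it gave 1 (Axl, adjusted p = 0.02313), beside 551 of 10150 genes. With the unnamed cluster added to OB1, an alternative chosen after seeing the data, log2(hours + 1) gave 3, beside 1771 of 11073 genes. OB3 gave 2 on log2(hours + 1) and 1 on ranks, the latter beside 171 of 5824 genes, and uHF.SB gave 2 on log2(hours + 1). With coarser follicle clusters, Amotl2 was lower in OB1 than in OB2 (-0.93, adjusted p = 0.04574), against an uncalled 0.33, and no uHF.SB cluster could be named. The cause of these changes was not tested. Leaving out 1 library at a time, counts for the time course ranged from 0 to 2 in OB1, beside 0 to 1002 of all genes. They were 0 to 1 in OB3, beside 0 to 249, and 0 in the other types, beside at most 180. They ranged from 5 to 7 for OB1 against IFE.B, 1 to 3 for OB1 against uHF.B, 3 to 5 for uHF.B against IFE.B, 4 to 4 for OB1 against OB2, 0 to 0 for OB1 against OB3, 3 to 5 for uHF.SB against uHF.B, 4 to 7 for IFE.SB against IFE.B, 1 to 3 for cycling OB1 cells and 3 to 5 for cycling IFE.B cells. No paired analysis was possible because each time point has 1 library with no replicate number to share, and the library itself is the block between types. Low counts limit Lats2 and Amotl2, at 5.31 to 30.8 CPM for Lats2 in OB1 and IFE.B. They also limit Ccn2 in uHF.SB, at 0 to 32.6 CPM.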
